A study of Homo sapiens with 4 samples.

Results

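Axon guidance ligands and receptors are the secreted and membrane proteins that steer growing axons and, outside the nervous system, migrating cells and the borders between tissues. The genes described here are the Eph receptors and their ephrin ligands, the semaphorins and their plexin receptors, the Slit ligands and their Robo receptors, and the netrins with the receptors DCC and UNC5. They were taken by symbol from the deposited gene table, which held 69 of them among 25690 gene rows. The table comes from polyA-selected RNA sequencing of day 7 cultures of H9, an established line of human embryonic stem cells, which the series describes as non-neural ectoderm. That is the part of the early ectoderm that gives rise to epidermis, cranial placodes and neural crest.

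Libraries labelled TFAP2A knockout (2) were compared with wild-type (WT) libraries (2), all from H9 at day 7 and with no other treatment named. TFAP2A encodes an AP-2 transcription factor of the non-neural ectoderm. No growth protocol, clone, guide or allele is given in the labels used here. They also do not state whether replicates were grown separately, and p-values here therefore cover the spread among 4 libraries only, possibly technical. Titles of the knockout libraries name TFAP2C, but their genotype label names TFAP2A. TFAP2A itself was at 133 and 121 CPM (counts scaled to the size of the library) in the libraries labelled knockout and at 171 and 198 CPM in WT, and TFAP2C was at 8.88 and 5.77 CPM in the libraries labelled knockout and at 27.5 and 30.6 CPM in WT. The fall was not particular to TFAP2C. TFAP2B was at 45.7 and 40.5 CPM in the libraries labelled knockout and at 261 and 287 CPM in WT. TFAP2E was at 7.01 and 5.96 CPM in the libraries labelled knockout and at 11.4 and 11.7 CPM in WT. A count over the whole gene cannot tell an intact TFAP2A transcript from an edited one, so these counts could not check the label, and "knockout" means the libraries so labelled.

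Guidance proteins work as matched sets. Ephrins sit on the surface of a neighbouring cell and bind Eph receptor tyrosine kinases, with the A-type ephrins preferring EphA and the B-type ephrins EphB receptors. Class 3 semaphorins are secreted and mostly bind neuropilins, which signal mainly through A-type plexins, while most other semaphorins are membrane-anchored and bind plexins directly. Slits bind Robo receptors and mostly repel. Netrin-1 attracts through DCC and repels through the UNC5 receptors, and NEO1 is the close relative of DCC.

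Libraries held 19305868 and 21797850 counts in knockout and 17945210 and 17838204 counts in WT. A gene with 0 counts could still be at up to 3 counts, or 0.138 to 0.168 CPM by library, a limit that covers counting error only. As labelled, the cells expressed non-neural ectoderm genes such as GATA3, CDH1 and KRT8. The summed level of 10 non-neural ectoderm markers was 2007 to 2084 CPM in knockout and 2698 to 2935 CPM in WT, and 6 of the 10 were lower in knockout. Of 5 neural progenitor markers 4 were higher in knockout (summed 42.8 to 65.5 CPM in knockout and 16.5 to 17.8 CPM in WT), as were 4 of 9 neuronal markers (544 to 581 CPM in knockout and 513 to 517 CPM in WT). Most of the neural progenitor sum was SOX2, at 51.8 and 31.4 CPM in knockout and 11.7 and 10.9 CPM in WT. SOX1 was at 1.28 and 0.687 CPM in knockout, and SIX3 was too low to test. Most of the neuronal sum was DCX, and STMN2 and ELAVL4 stayed under 0.5 CPM in every library. Of 5 neural crest markers 1 was lower (42.5 to 55.9 CPM in knockout and 60.9 to 65.5 CPM in WT), and SOX10 and FOXD3 were too low to test. Of 5 mesenchymal markers 4 were lower in knockout (2871 to 3255 CPM in knockout and 3438 to 3440 CPM in WT). Most of that sum was COL1A1, the 1 that did not pass, whereas PRRX1 was 5.88-fold and POSTN 5.48-fold lower. Lower too were 2 of 5 endothelial markers (16.6 to 17.4 CPM in knockout and 41.1 to 43.6 CPM in WT), with PECAM1 at 0 counts in all libraries. Over all genes tested, 21.9% were higher and 22.4% lower in knockout, and 1 of 5 neural crest markers is near that share. The part of these marker shifts in the results below was not tested. In RNA from a whole culture, fewer cells of a type and less RNA per cell cannot be told apart.

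Of the 69 genes, 63 had enough counts to test. Among them 20 rose, 22 fell and 21 did not pass (edgeR's quasi-likelihood test, Benjamini-Hochberg adjusted p under 0.05 over the 15660 genes tested), so 66.7% were called, beside 44.3% of all genes tested. In each direction the shares were 31.7% against 21.9% of all genes for rises, and 34.9% against 22.4% for falls. The tested members had a median level of 43.2 CPM, against 24.05 CPM over all genes tested, and higher counts make a given change easier to call. At a mean of at least 10 CPM, 34 of 47 members (72.3%) and 48.4% of all genes were called. A log2 fold change of at least 1 was also present in 12 of the called members (19.0%, against 11.2% of all genes). The libraries of the genotypes did not overlap for 56 of the 63, against 73.1% of all genes. The median log2 fold change of the members was 0.04 (all genes 0.00) and the median size of the change, without its sign, was 0.46 (all genes 0.24). By role, 10 of 36 ligands were higher and 14 lower, and 10 of 27 receptors were higher and 8 lower. Except for DCC, the families with no called member in the opposite direction were EPHB, with 1 member lower, SEMA4, with 2 lower, and SLIT, with 2 higher. The other families each held rises and falls.

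**Figure D1:**
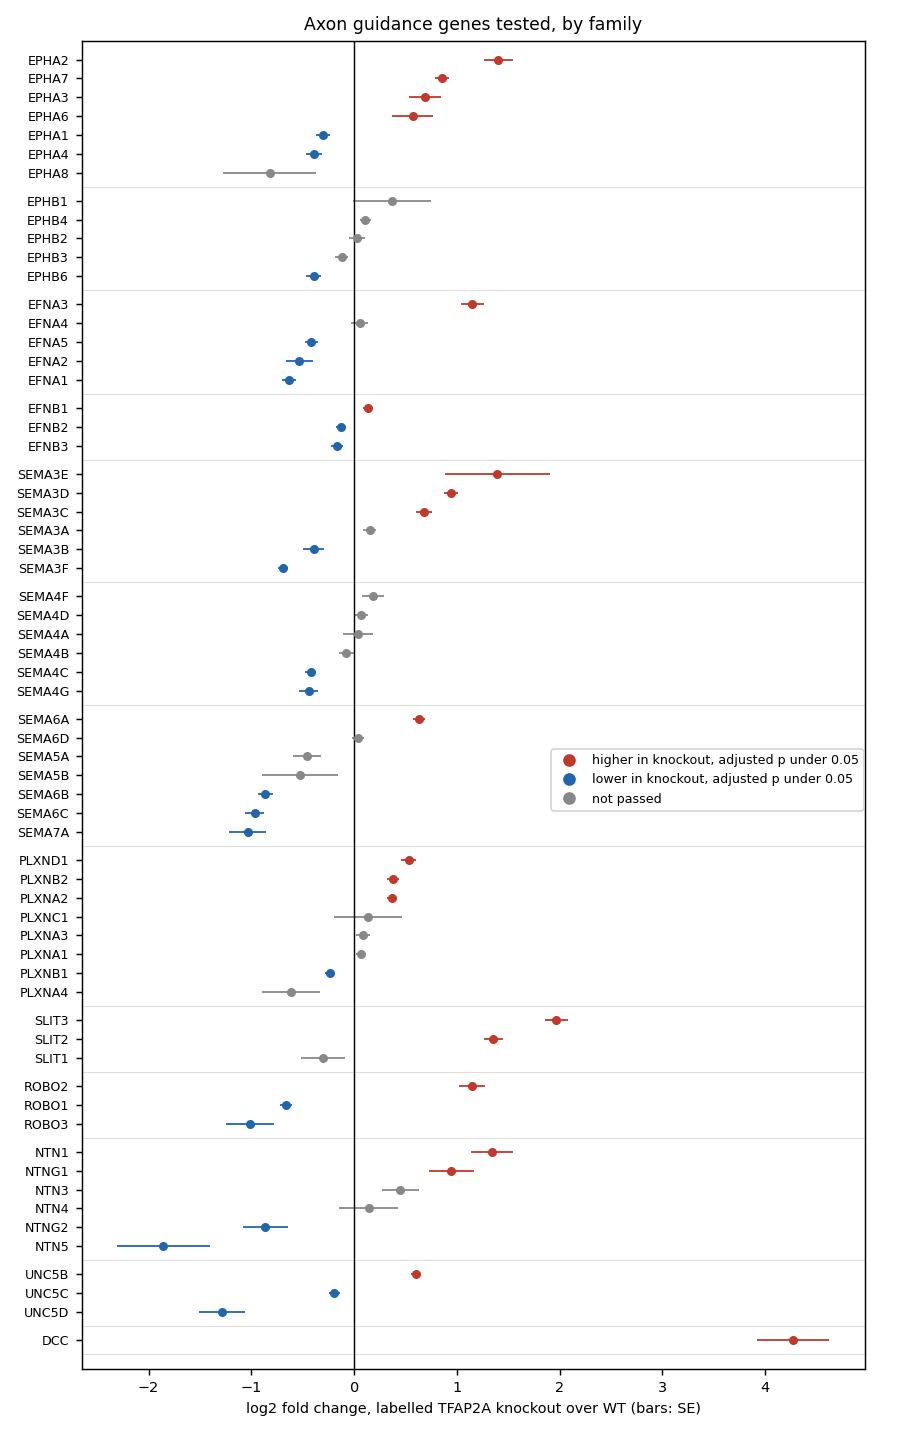
Log2 fold change of each of the 63 tested genes, knockout over WT, with bars for the standard error, grouped by family from EPHA at the top to DCC at the bottom. Red points passed as higher and blue as lower in knockout; DCC stands farthest from 0 at 4.27, and SLIT3 and NTN5 follow at 1.97 and -1.86.

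Members given in full are those changed at least 2-fold with at least 1 CPM in the higher genotype and no overlap between the genotypes, and the member of each family with the highest level per kilobase of transcript. By size of change 7 genes were higher (DCC, SLIT3, EPHA2, SLIT2, NTN1, EFNA3 and ROBO2) and 4 lower (NTN5, UNC5D, SEMA7A and ROBO3).

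**Figure D2:**
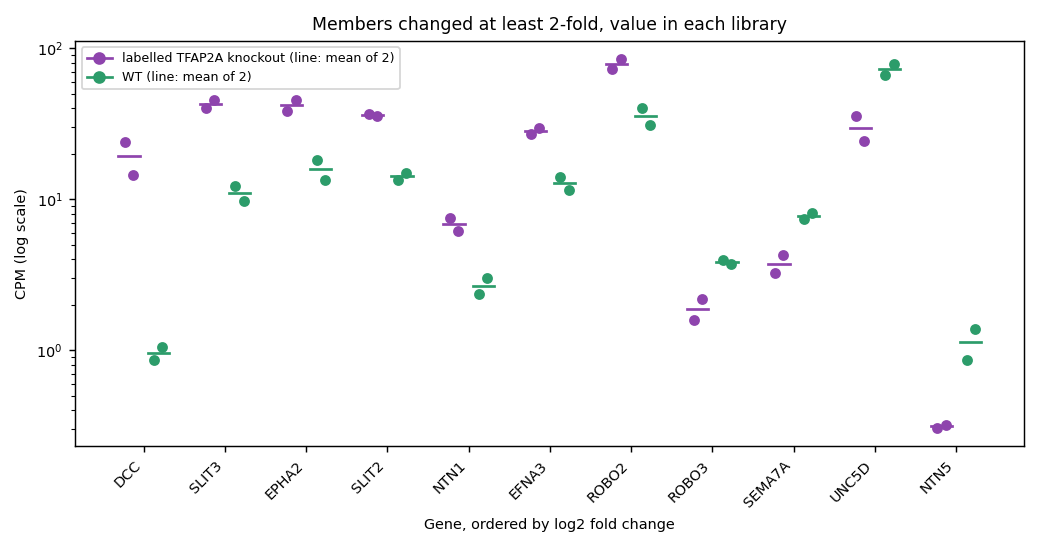
CPM on a log scale in each library for the 11 genes changed at least 2-fold, knockout to the left of WT for each gene, with a line at the mean of the 2 libraries. The rule that chose the 11 leaves no overlap between knockout and WT points, and the DCC points in knockout (24.1 and 14.3 CPM) lay far above those in WT (0.867 and 1.05 CPM).

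Among the EphA receptors 4 rose, 2 fell and 1 did not pass. EPHA2, a receptor of epithelial cells, showed the largest change of the family (chromosome 1, 16450832 to 16482582, minus strand, hg19). It was at 38.2 and 45.6 CPM in knockout and at 18.2 and 13.4 CPM in WT. The knockout libraries were both above both WT libraries, 2.65-fold higher (log2 fold change 1.40, SE 0.14, adjusted p = 8.85e-05). EPHA7, an EphA receptor of the developing brain, had 56.3 and 54.9 CPM in knockout against 30.0 and 31.5 CPM in WT, and so rose 1.81-fold with little spread within a genotype. EPHA3 was 1.61-fold and EPHA6 1.49-fold higher. The EPHA6 call was lost with DESeq2 and without knockout replicate 1 (adjusted p = 0.126), knockout replicate 2 (0.0521) or WT replicate 2 (0.215).

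EPHA1, an epithelial member of the family, had the highest level per kilobase among the EphA genes. It was at 50.1 and 48.2 CPM in knockout and at 60.8 and 60.2 CPM in WT (log2 fold change -0.30, SE 0.07, adjusted p = 0.00197). EPHA4, which binds ephrins of both types, was also lower (log2 fold change -0.39). The balance within the family therefore differed between the genotypes. EPHA2 counts were 0.763 and 0.946 of the EPHA1 counts in knockout and 0.300 and 0.223 in WT, and EPHA7 counts were 1.36 and 1.16 times the EPHA4 counts in knockout and 0.534 and 0.522 in WT. Such ratios, for pairs chosen after the values were seen, are taken within a library and do not depend on how libraries are scaled, but gene length is not divided out of them. EPHA8, at under 1 CPM, did not pass, and EPHA5 and EPHA10 had at most 5 counts in any library and were left out by the low-count filter.

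EphB receptors held 1 called gene among 5, beside 44.3% of all genes tested. EPHB4, the EFNB2 receptor that marks veins, was the most highly expressed per kilobase, at 285 and 303 CPM in knockout and 284 and 260 CPM in WT (67.9 CPM per kilobase in knockout and 62.9 in WT), and did not pass (log2 fold change 0.11, SE 0.06, adjusted p = 0.128). EPHB2 did not pass at 378 and 454 CPM in knockout against 407 and 410 CPM in WT, nor did EPHB3 at 195 and 223 against 230 and 226 CPM, but leaving out knockout replicate 1 gave EPHB2 a call upward (adjusted p = 0.0432) and leaving out knockout replicate 2 gave EPHB3 a call downward (0.0116). EPHB6, a family member without kinase activity, fell to 38.2 and 40.4 CPM in knockout, against 54.0 and 49.2 CPM in WT (log2 fold change -0.39). Whether the EphA and EphB genes differ in their response was not tested.

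Ephrin-A ligands showed 3 falls and 1 rise among 5 genes, and the rise and the largest fall were in neighbouring genes. EFNA4, EFNA3 and EFNA1 lie side by side on chromosome 1 (155036213 to 155107386, hg19) with no other gene row between them. EFNA3 was at 27.0 and 29.6 CPM in knockout and at 14.0 and 11.5 CPM in WT, 2.22-fold higher (log2 fold change 1.15, SE 0.11, adjusted p = 1.38e-06). EFNA1, an ephrin of epithelia and blood vessels and the most abundant of the family per kilobase, was at 54.3 and 52.8 CPM in knockout and at 87.1 and 78.6 CPM in WT (log2 fold change -0.63, SE 0.07, adjusted p = 4.19e-06). EFNA4, next to EFNA3, was at 30.6 and 34.4 CPM in knockout and at 32.0 and 30.7 CPM in WT and did not pass. The 3 adjacent genes therefore showed a rise, a fall and no call, and EFNA3 counts were 0.497 and 0.561 of the EFNA1 counts in knockout against 0.161 and 0.146 in WT.

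EFNA5 fell 1.33-fold and EFNA2 1.45-fold, the EFNA2 call being lost without WT replicate 2 (adjusted p = 0.0548). All 3 ephrin-B ligands had small changes. EFNB1, which lies on the X chromosome and sets tissue boundaries in the face and skull, was the highest per kilobase at 163 and 167 CPM in knockout and 153 and 147 CPM in WT. Its log2 fold change was 0.14, those of EFNB2 and EFNB3 were -0.13 and -0.17, and all 3 passed narrowly (adjusted p = 0.0456, 0.0489 and 0.0379). Each call was lost in 8 or more of the 13 alternative analyses, with every library that could be left out for EFNB1 and EFNB2, without knockout replicate 1 or either WT replicate for EFNB3, and with upper-quartile scaling for EFNB2 and EFNB3.

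**Figure D3:**
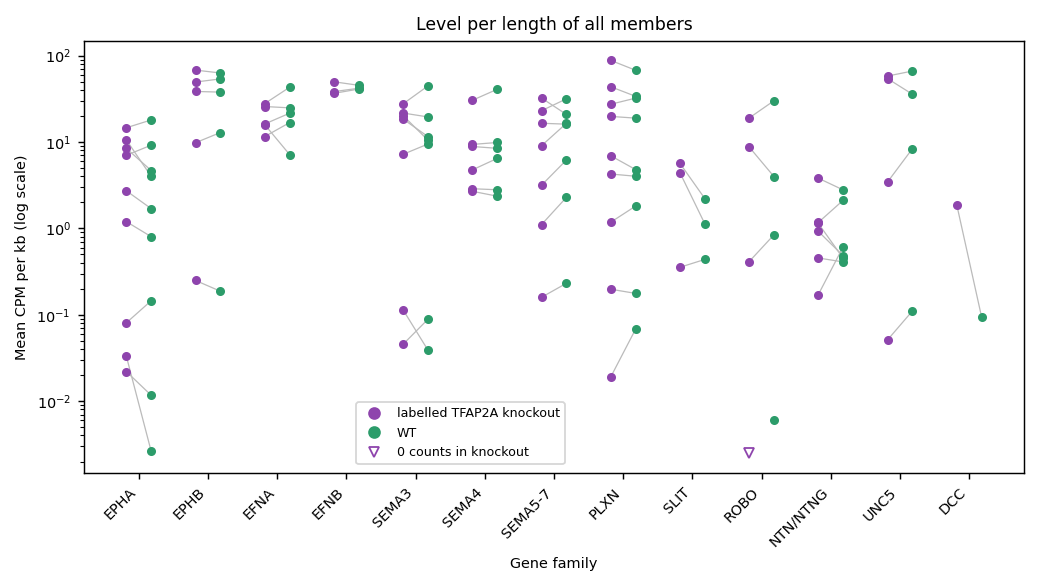
Mean CPM per kilobase of the longest annotated protein-coding transcript, on a log scale, for all 69 genes by family, knockout to the left of WT, with a line joining the 2 values of a gene and an open triangle where knockout had 0 counts. PLXNB2, EPHB4 and UNC5C were the highest of the 69, and DCC and the SLIT genes lay below most plexins, ephrins and EphB receptors in both genotypes.

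Of the semaphorin ligands, 7 of 19 tested members were lower and 4 higher, beside 22.4% and 21.9% of all genes tested. The secreted class 3 genes divided by where they lie. SEMA3D, SEMA3C and SEMA3E, all on chromosome 7, were higher, whereas SEMA3F and SEMA3B, both on chromosome 3, were lower. SEMA3D, which patterns endothelial cells in the mouse, was at 124 and 129 CPM in knockout and at 61.7 and 69.6 CPM in WT (log2 fold change 0.95, SE 0.07, adjusted p = 4.6e-08). SEMA3C, which guides cardiac neural crest in the mouse, was at 95.0 and 95.6 CPM in knockout and at 54.5 and 64.7 CPM in WT (log2 fold change 0.68, SE 0.08). SEMA3E had 21 and 12.5 counts in knockout against 5.5 and 4.5 in WT, and its call was lost with DESeq2 (adjusted p = 0.27), with limma-voom and without knockout replicate 1 (0.321) or either WT replicate (0.125 and 0.174).

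SEMA3F, the NRP2 ligand that repels axons and, in the mouse, trunk neural crest cells, had the highest level per kilobase of the class. It was at 105 and 105 CPM in knockout and at 168 and 171 CPM in WT, with no overlap and hardly any spread within a genotype (log2 fold change -0.69, SE 0.05, adjusted p = 9.86e-08). SEMA3D counts thus exceeded SEMA3F counts in knockout, at ratios of 1.18 and 1.23, and were below them in WT, at 0.367 and 0.406. SEMA3B fell 1.31-fold, a call lost without knockout replicate 1 (adjusted p = 0.0762) or WT replicate 2 (0.0572). SEMA3A, the classical collapsing factor of axon tips, was at 188 and 168 CPM in knockout and at 159 and 161 CPM in WT and missed the threshold (adjusted p = 0.0529). It passed as higher with upper-quartile scaling, without the low-count filter and without knockout replicate 2 (0.00933).

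Chromosome 7 rows from SEMA3C to SEMA3D (80371854 to 84751247, hg19) included 7 tested genes, of which 6 were higher, 0 lower and 1, SEMA3A, did not pass, beside 21.9% of all genes higher. The 3 that are not semaphorins were HGF, the ligand of the MET receptor, CACNA2D1, a calcium channel subunit, and PCLO, a presynaptic scaffold. HGF was at 4.99 and 6.21 CPM in knockout and at 1.37 and 1.22 CPM in WT (log2 fold change 2.09, SE 0.23), and CACNA2D1 and PCLO had log2 fold changes of 0.99 and 0.34. Sizes of the rise ranged from 0.34 to 2.09 and the smallest change, in SEMA3A, stood between larger changes in SEMA3E and SEMA3D. The interval was picked after the values were seen. On chromosome 3, from SEMA3F to SEMA3G, 12 of 48 tested genes were lower and 5 higher, beside 22.4% and 21.9% of all genes.

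**Figure D4:**
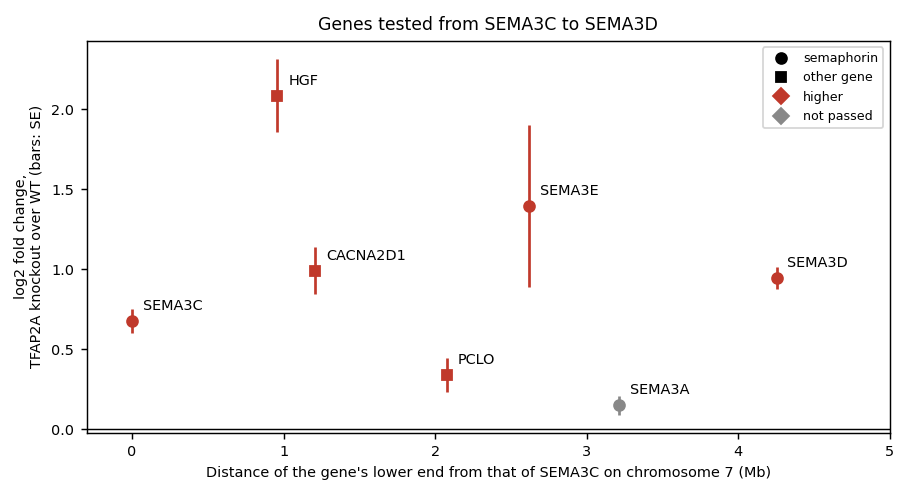
Log2 fold change, knockout over WT, with bars for the standard error, of the 7 genes tested from SEMA3C to SEMA3D, against distance from SEMA3C in megabases. Circles are semaphorins, squares other genes, red passed as higher and grey did not pass; all points lie above 0 and SEMA3A is the lowest at 0.15.

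Class 4 semaphorins, which are membrane proteins, had 2 falls and no rise among 6 tested. SEMA4C, a ligand of PLXNB2 and the highest of the class per kilobase, was at 108 and 107 CPM in knockout and at 143 and 145 CPM in WT (log2 fold change -0.42, SE 0.05, adjusted p = 1.64e-05). SEMA4G fell by a similar amount (log2 fold change -0.44), while SEMA4A, SEMA4B, SEMA4D and SEMA4F had log2 fold changes between -0.08 and 0.19 and did not pass.

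Class 6 ligands, transmembrane partners of A-type plexins, moved both ways. SEMA6A rose to 233 and 211 CPM in knockout, against 137 and 149 CPM in WT (log2 fold change 0.63, SE 0.06). SEMA6B fell to 37.0 and 35.1 CPM in knockout, against 69.4 and 61.7 CPM in WT (log2 fold change -0.86), and SEMA6C to 16.4 and 16.8 CPM in knockout, against 33.3 and 31.8 CPM in WT (log2 fold change -0.97). SEMA6D was at 99.0 and 102 CPM in knockout and at 94.2 and 102 CPM in WT and did not pass. SEMA6A counts were 6.29 and 6.01 times those of SEMA6B in knockout and 1.98 and 2.41 times in WT. A SEMA6A antisense row, SEMA6A-AS1, was also higher, and without strand information its reads and those of SEMA6A cannot be told apart where the genes overlap, but it held 252 counts per library on average in knockout against 4577 for SEMA6A.

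SEMA7A, a GPI-anchored semaphorin that acts through integrins and PLXNC1, was at 3.23 and 4.24 CPM in knockout and at 7.38 and 8.05 CPM in WT, 2.05-fold lower (-1.04 ± 0.18 SE on the log2 scale, adjusted p = 0.000369). SEMA5A, with the highest level per kilobase among classes 5 to 7, was at 302 and 239 CPM in knockout and at 352 and 391 CPM in WT. It did not pass (log2 fold change -0.46, SE 0.14, adjusted p = 0.0655), although its genotypes did not overlap. The gene passed as lower in 7 of 13 alternatives, among them DESeq2 (0.0438) and the fits without knockout replicate 1 (3.61e-05), knockout replicate 2 (0.00564) or WT replicate 1 (0.036).

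**Figure D5:**
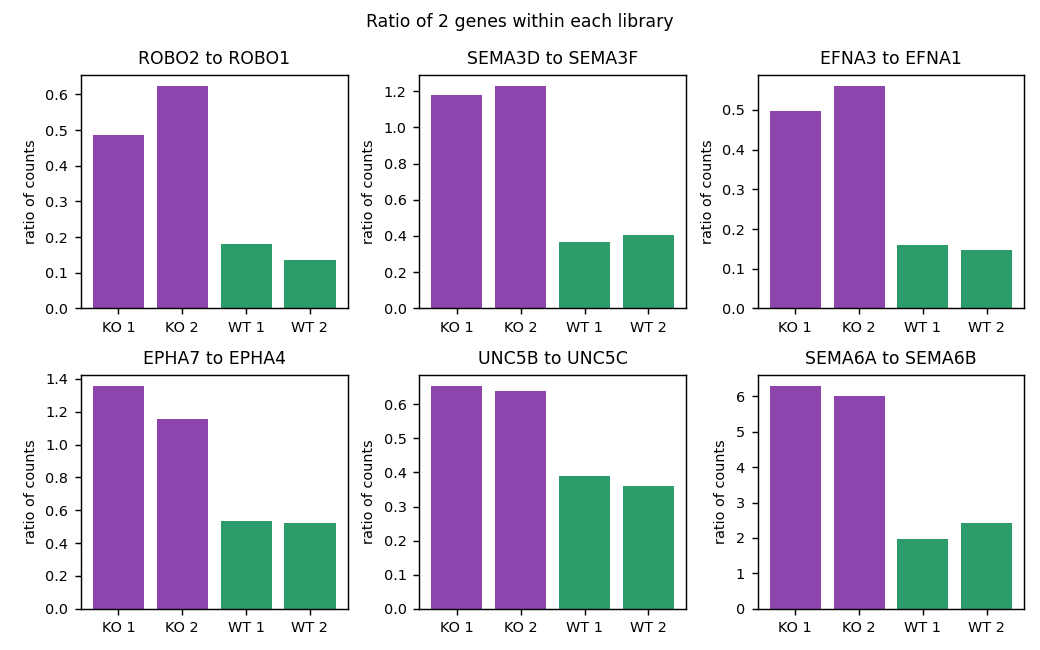
Ratio of the counts of 2 related genes within each library, from 0, with the knockout libraries (purple) left of the WT libraries (green). Each of the 6 pairs sets a gene called higher over one called lower, so that both knockout bars stand above both WT bars by choice, for example 0.486 and 0.624 against 0.180 and 0.136 for ROBO2 to ROBO1.

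Of 8 plexin receptors tested, 3 rose, 1 fell and 4 did not pass, with none changed 2-fold. PLXNB2, the receptor of class 4 semaphorins and the highest of all 69 genes per kilobase, was at 532 and 592 CPM in knockout and at 439 and 425 CPM in WT (log2 fold change 0.38, SE 0.06, adjusted p = 9.37e-05). PLXNA2, a partner of class 3 and class 6 semaphorins, rose to 507 and 491 CPM in knockout, against 389 and 384 CPM in WT (log2 fold change 0.37), and PLXND1, the receptor of SEMA3E, rose 1.45-fold. PLXNB1, the SEMA4D receptor, fell 1.18-fold. PLXNA1 and PLXNA3 had log2 fold changes of 0.07 and 0.09 and did not pass.

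PLXNA4 differed between the knockout libraries, at 12.0 and 20.5 CPM in knockout and at 25.02 and 24.92 CPM in WT. It did not pass (adjusted p = 0.168), but passed as lower with all libraries in limma-voom (0.0189) and without robust estimation (0.0246). Its log2 fold change was -1.06 without knockout replicate 2, and ranged from -1.06 to -0.29 over the 13 alternatives. PLXNC1 stayed under 2 CPM, and PLXNB3 had 2.5 and 2.5 counts in knockout and 11.5 and 4 in WT and was left out by the low-count filter.

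Neuropilins, the co-receptors through which most class 3 semaphorins act, fell, and NRP2 fell more than any of the 69 genes. NRP2 was at 32.8 and 34.3 CPM in knockout and at 387 and 432 CPM in WT, 12.2-fold lower (-3.61 ± 0.07 SE on the log2 scale, adjusted p = 1.76e-13). NRP1, which binds SEMA3A and VEGF, was at 65.0 and 56.7 CPM in knockout and at 90.9 and 99.6 CPM in WT (log2 fold change -0.65, SE 0.08, adjusted p = 1.14e-05). Both genes were lower in every knockout library than in any WT library. SEMA3F, the NRP2 ligand, was lower as well, whereas SEMA3C and SEMA3D, other class 3 ligands, were higher.

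Slit ligands rose, apart from SLIT1, and Robo receptors divided. SLIT3 (chromosome 5, 168088738 to 168728133, minus strand, hg19) was at 40.3 and 45.3 CPM in knockout and at 12.2 and 9.70 CPM in WT, 3.92-fold higher (log2 fold change 1.97, SE 0.11, adjusted p = 8.46e-09). SLIT2 (chromosome 4, 20255187 to 20622184, plus strand, hg19), which had the highest Slit level per kilobase, was at 36.6 and 35.7 CPM in knockout and at 13.4 and 14.9 CPM in WT, 2.56-fold higher (log2 fold change 1.35, SE 0.09, adjusted p = 3.73e-08). In both genes the lowest knockout library lay above the highest WT library by more than 2-fold. SLIT1, at 3.10 and 2.52 CPM in knockout and 3.63 and 3.29 CPM in WT, did not pass. A read-through row that joins ARHGAP19 to SLIT1 held more counts than SLIT1 itself and was higher, so how reads of their shared exons were split is uncertain.

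Among the receptors of the Slits, ROBO1 and ROBO2, neighbours on chromosome 3 among the tested genes, moved in opposite directions. ROBO2 (77089294 to 77699114, plus strand, hg19) was at 72.3 and 84.5 CPM in knockout and at 39.8 and 31.1 CPM in WT, 2.21-fold higher (log2 fold change 1.14, SE 0.13, adjusted p = 0.000291). ROBO1 (78646388 to 79068609, minus strand, hg19), the more abundant per kilobase, was at 149 and 135 CPM in knockout and at 221 and 229 CPM in WT, 1.59-fold lower (-0.67 ± 0.06 SE on the log2 scale, adjusted p = 3.32e-07). Per kilobase ROBO1 was at 18.9 CPM in knockout and 30.0 CPM in WT, and ROBO2 at 8.76 CPM in knockout and 3.97 CPM in WT. ROBO1 thus stayed the higher of the pair in both genotypes. ROBO3, the receptor of axons that cross the midline, was at 1.59 and 2.18 CPM in knockout and at 3.97 and 3.74 CPM in WT, 2.02-fold lower (-1.02 ± 0.23 SE on the log2 scale, adjusted p = 0.00271). ROBO4, the endothelial member, had 0 counts in both knockout libraries and 0.5 in each WT library, all under the limit of 3 counts.

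DCC, the receptor through which netrin-1 attracts axons, showed the largest change of all 69 genes (chromosome 18, 49866542 to 51062273, plus strand, hg19). It had 470 and 313 counts in knockout and 15.5 and 18.5 counts in WT, which is 24.1 and 14.3 CPM in knockout and 0.867 and 1.05 CPM in WT. The knockout libraries differed from each other by more than the WT libraries did, and both were more than 10-fold above either WT library. The fitted change was 19.3-fold (log2 fold change 4.27, SE 0.35, adjusted p = 8.26e-05), and it stayed between 3.86 and 4.60 on the log2 scale in all 13 alternatives, with adjusted p of at most 0.0111. NEO1, the other receptor of the DCC type, had 467 and 541 CPM in knockout and 300.3 and 304 CPM in WT (log2 fold change 0.74, SE 0.06, adjusted p = 1.56e-06). DCC counts were 0.0515 and 0.0265 of NEO1 counts in knockout and 0.00289 and 0.00346 in WT, so DCC remained the minor of these receptors in knockout too.

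Netrins themselves were low. NTN1, the netrin that attracts commissural axons, was at 7.47 and 6.12 CPM in knockout and at 2.35 and 3.01 CPM in WT, 2.54-fold higher (log2 fold change 1.34, SE 0.20, adjusted p = 9.68e-05). NTN3 had the highest level per kilobase, at 6.60 and 8.52 CPM in knockout and 5.98 and 5.07 CPM in WT, and missed the threshold (adjusted p = 0.0518), though it passed as higher with upper-quartile scaling, without the low-count filter and without knockout replicate 1 (0.0234). NTN4 stayed under 2 CPM and did not pass. NTN5 had 6 and 7 counts in knockout and 15.5 and 24.5 in WT, or 0.307 and 0.321 CPM in knockout and 0.867 and 1.39 CPM in WT. It was 3.62-fold lower (-1.86 ± 0.45 SE on the log2 scale, adjusted p = 0.00401), but DESeq2 (0.0727) and the fit without WT replicate 2 (0.077) did not call it, and the gene lies within a row on the opposite strand, SEC1P, whose reads cannot be told apart from its own.

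Netrin-G genes, whose GPI-anchored products bind LRRC4-type proteins and not DCC, moved in opposite directions. NTNG1 was at 3.84 and 4.70 CPM in knockout and at 2.35 and 2.10 CPM in WT, 1.93-fold higher. NTNG2 was at 7.09 and 4.12 CPM in knockout and at 10.1 and 10.2 CPM in WT, 1.82-fold lower.

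UNC5 receptors turn the netrin response into repulsion, and UNC5C and UNC5B were far more abundant per kilobase than DCC. UNC5C was the highest per kilobase, at 561 and 584 CPM in knockout and 630 and 678 CPM in WT (log2 fold change -0.19, SE 0.05, adjusted p = 0.00952), a call lost without knockout replicate 1 (0.0607) or WT replicate 2 (0.123). UNC5B, a receptor of vessels and epithelia, rose to 367 and 374 CPM in knockout, against 245 and 244 CPM in WT (log2 fold change 0.60, SE 0.05, adjusted p = 1.97e-07). UNC5B counts were 0.654 and 0.640 of UNC5C counts in knockout and 0.389 and 0.359 in WT. UNC5D fell to 35.3 and 24.2 CPM in knockout, against 66.9 and 78.1 CPM in WT, 2.44-fold lower (-1.29 ± 0.23 SE on the log2 scale, adjusted p = 0.0226), a call lost without the low-count filter (0.0724). UNC5A had at most 8.5 counts in any library and was left out by the low-count filter. Per kilobase, DCC was at 1.88 CPM in knockout and 0.0938 CPM in WT, against 58.0 CPM in knockout and 66.2 CPM in WT for UNC5C.

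Other genes of guidance signalling, taken from a list of 61 co-receptors, further ligands and cytoplasmic effectors of which 60 were found, gave 16 rises, 20 falls and 22 genes that did not pass among 58 tested, beside 21.9% of all genes higher and 22.4% lower (median log2 fold change 0.06). Leaving out a library left 9 rises without knockout replicate 1 and 10 without either WT replicate. The largest falls with at least 1 CPM were in NRP2, in CXCL12, a chemokine that guides migrating cells, and in MET, the HGF receptor. CXCL12 was at 33.2 and 31.9 CPM in knockout and at 82.8 and 81.7 CPM in WT (log2 fold change -1.34, SE 0.07), and MET at 55.7 and 48.9 CPM in knockout and at 115 and 125 CPM in WT (log2 fold change -1.20, SE 0.07). MET was thus lower in the libraries where its ligand HGF was higher. The largest rises were in NELL2, a ROBO3 ligand in the mouse, with 11.7 and 9.05 CPM in knockout and 7.13 and 4.96 CPM in WT, in LRRC4, a synaptic adhesion protein and netrin-G partner, with 13.1 and 9.14 CPM in knockout and 6.63 and 6.58 CPM in WT, and in NEO1. The NELL2 call was lost without knockout replicate 1 (adjusted p = 0.0577) or WT replicate 2 (0.058), and the LRRC4 call without knockout replicate 1 (0.0532). Among 40 cytoplasmic effectors and shedding enzymes tested, 9 rose and 15 fell.

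Promoter sequences were examined because AP-2 factors bind the palindrome GCCNNNGGC and its longer form with 4 bases in the spacer. Both read the same on either strand. RefSeq windows of 300 bases (GRCh38.p14, 250 before and 50 after the gene start) were matched by symbol for 59 of the 69 genes, 54 of them tested. GCCNNNGGC occurred in 2 of 17 windows of members that rose (11.8%), in 10 of 18 of members that fell (55.6%) and in 8 of 19 of those that did not pass (42.1%). Over all tested genes with a window the shares were 32.8% of those that rose, 34.5% of those that fell and 30.8% of those that did not pass. The median GC content was 64.3% for members that rose and 69.8% for those that fell (65.3% and 66.5% over all genes tested), and the part of GC content in these shares was not tested. The longer palindrome occurred in 7 of 17, 8 of 18 and 6 of 19 member windows (41.2%, 44.4% and 31.6%, against 30.9%, 30.3% and 28.9% of all tested genes). Of all 27305 windows, 23.0% held the shorter and 21.2% the longer. A match shows the letters alone and not binding.

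The 250 bases before the start are shown for DCC and SLIT3, the members that rose most, and for NTN5 and SEMA7A, which fell more than 2-fold, with AP-2 palindromes in capitals. Those of DCC and SLIT3 held none, while NTN5 held 2 (198 and 26 bases before the start) and SEMA7A 3 (221, 42 and 22 bases before the start, the middle being the longer form). The windows are chr18:52339947-52340196 (plus strand) for DCC, chr5:169301140-169301389 (minus strand) for SLIT3, chr19:48673018-48673267 (minus strand) for NTN5 and chr15:74433959-74434208 (minus strand) for SEMA7A, and their GC contents are 56.0%, 62.8%, 70.0% and 70.0%.
DCC: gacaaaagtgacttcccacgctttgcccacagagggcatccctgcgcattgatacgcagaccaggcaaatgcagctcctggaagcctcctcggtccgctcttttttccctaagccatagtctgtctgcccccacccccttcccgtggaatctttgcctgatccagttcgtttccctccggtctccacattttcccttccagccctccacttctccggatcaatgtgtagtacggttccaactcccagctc
SLIT3: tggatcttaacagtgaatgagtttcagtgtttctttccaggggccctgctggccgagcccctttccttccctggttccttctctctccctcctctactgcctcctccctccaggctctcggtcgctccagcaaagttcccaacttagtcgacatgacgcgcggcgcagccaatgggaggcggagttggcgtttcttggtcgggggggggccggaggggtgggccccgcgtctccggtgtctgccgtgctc
NTN5: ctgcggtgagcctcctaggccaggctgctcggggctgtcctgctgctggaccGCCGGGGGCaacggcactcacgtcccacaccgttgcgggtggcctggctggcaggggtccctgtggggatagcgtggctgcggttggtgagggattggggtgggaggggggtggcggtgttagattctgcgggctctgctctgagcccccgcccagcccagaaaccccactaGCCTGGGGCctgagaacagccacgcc
SEMA7A: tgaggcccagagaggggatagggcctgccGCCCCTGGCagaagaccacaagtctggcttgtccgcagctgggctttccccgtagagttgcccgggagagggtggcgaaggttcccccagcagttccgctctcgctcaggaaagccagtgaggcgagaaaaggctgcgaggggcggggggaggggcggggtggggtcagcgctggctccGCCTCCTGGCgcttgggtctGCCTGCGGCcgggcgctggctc
The printed windows are a choice among the members changed at least 2-fold. In the others with a window, palindromes did not divide by direction. EFNA3 and SLIT2, which rose, each hold 1 in the same 250 bases of their windows. The window matched to ROBO3, which fell, holds none. Windows were matched by symbol alone, and for no gene was it checked whether the window lies at the start of its row.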

How the data were processed

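The authors deposited 1 table of estimated counts per gene. Tools named in the submitters' processing notes are TopHat, DESeq2 and HOMER, with hg38 as the build and no versions. The annotation, how reads were assigned to genes and whether strand was used were not given in the sources used here. All values are multiples of 0.5 and 37.0% are not whole. Only 4.38% of 22862 genes match GRCh38 starts to 2000 bp or better, and 26 rows lie on contigs named as in hg19, so positions are printed as hg19. Spreadsheet dates replaced 28 symbols.

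Counts were rounded, filtered with filterByExpr and scaled with TMM, and genotype was tested with edgeR 4.0.16 (robust glmQLFit, glmQLFTest) in R 4.3.3, adjusted by Benjamini-Hochberg over 15660 genes. CPM use TMM-adjusted totals. The SE is the size of the log2 fold change over the square root of F. Levels per kilobase use the longest GENCODE protein-coding transcript. The test was tested on simulated data, where it made more false calls than its threshold implies once genes had their own fitted spread. Alternatives used DESeq2 1.42.0, limma 3.58.1, other scaling, filters and rounding, a replicate block and each library left out. Total counts per library were 17838204 to 21797850, which limits precision for genes with few counts.

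Members, lists and the rules for named genes were chosen with earlier results of these data known. Values in every library are given for members changed at least 2-fold with at least 1 CPM in the higher genotype and no overlap, and for the highest of each family per kilobase. From the other pathway genes, the 3 largest rises and 3 largest falls at 1 CPM or more, NRP1, NRP2 and NEO1 are named. Other genes, and other members given library by library, were chosen after their values were seen.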

Additional observations from a re-analysis of the deposited data

How the results depend on the processing

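Of the 42 members called, 32 kept their call in all 13 alternatives, 10 lost it in at least 1 and 0 changed direction. Of the 21 that did not pass, 6 passed in at least 1. Members that rose numbered 17 to 22 and members that fell 17 to 24 over the alternatives. Among the other pathway genes, whose alternatives were added after seeing the data, leaving out a library gave 9 to 15 rises against 16 with all libraries. Same-numbered libraries did not deviate together (correlation -0.038 over 11903 genes). This gives no sign of a pairing by number, but it cannot exclude one that acts on some genes only, and the labels state none. With the replicate number as a block 19 members rose and 21 fell, the EFNB1, EFNB2 and EFNB3 calls were lost (adjusted p = 0.0765, 0.0702 and 0.0743) and PLXNA4 passed as lower (0.0379), and over all genes 3115 rose and 3227 fell, against 3432 and 3501 without it. With DESeq2, 2306 genes rose and 2463 fell. Only 2 libraries a genotype, with 2 residual degrees of freedom, limit what could be called. On simulated data with a fitted spread for each gene the test made more false calls than its threshold implies, which applies to the 42 calls too. The 6 members that the low-count filter left out did not pass without that filter, and PLXNB3 passed as lower only without WT replicate 2 (adjusted p = 0.05).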
